A study of Mus musculus with 18 samples.

Results

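Trp53 encodes the transcription factor p53, and its level and that of 33 genes reported as its targets were followed in mouse liver. The 34 genes were picked by name out of 32285 rows of the count table. Liver RNA had been measured in 18 libraries, in 3 groups of 6 that the titles number 1 to 6. Space pups and Ground pups were F1 mice killed at 10 weeks of age. Their sires were W mice, which make no sperm of their own, seeded as young with cultured spermatogonia of the DBA/2 strain (GS cells), and their dams were C57BL/6. Before transplantation the GS cells had spent 6 months in a freezer, either aboard the International Space Station (Space) or on Earth (Ground). The BDF1 controls were wild-type mice of the same cross from natural mating, of an age that the labels do not give. All 3 groups are labelled wild-type B6D2F1. The donor GS cells carried an EGFP transgene, which the labels do not mention, and not all recipients sired young. Which sire or litter each pup came from is not given in the sources used here, so the spread between libraries covers these mice only.

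p53 is held at a low level in unstressed cells by the ubiquitin ligase Mdm2, itself a p53 target. DNA damage and other stresses free p53 from Mdm2, and p53 then binds paired decamers, short near-palindromic units, in DNA and switches on genes that stop the cell cycle, start apoptosis, repair DNA or lower growth signalling. Much of this control acts on the protein, so the Trp53 transcript can stay level while its targets move. Many targets also answer to other inputs: in liver, Cdkn1a and Ddit4 respond to glucocorticoids, feeding and the time of day as well as to p53.

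Replicates 1 to 3 (set A) and 4 to 6 (set B) of each group stood apart. Xist, the RNA of the inactive X chromosome, had 0 to 187 counts in replicates 1 to 3 and 12218 to 21557 in replicates 4 to 6, while Y-linked genes had 1822 to 2482 counts and 0 to 26 counts. The study analysed males and females of each group, but the labels give no sex or batch, so the sets are named by number here. Sex and anything else that goes with the numbers cannot be told apart. Libraries held 15407450 to 20562351 counts. Albumin took 4.47% to 24.1% of them, so the tissue matched its label. In Space-4, Ground-5 and Ground-6, Serpina6 (corticosteroid-binding globulin) took 2.18% to 3.43% of counts, against 0.0133% to 0.107% in the others, and the scaling factors of these libraries were the lowest of all (0.704 to 0.759). Space-6 held 46.3 CPM of 5 haploid germ cell markers, against at most 4.75 CPM elsewhere. Levels below are in CPM, counts scaled to a common library size with TMM factors. A change is a log2 difference of CPM with its SE from edgeR, called where the adjusted p over all 13356 genes tested was under 0.05. Of the 34 members, 33 passed the count filter. Pmaip1, which encodes the pro-apoptotic protein Noxa, did not, with 2 to 11 counts in each library.

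The DNA in front of 4 members is shown for the contrast between them: Cdkn1a, Bax and Sesn1, which held a p53 motif there, and Ddit4, which held none. The sequences are RefSeq promoters of GRCm38.p6, the 250 bases before a transcription start, 5′ to 3′ on the gene's strand. RefSeq gave 33 such windows for 26 of the 34 members, with none for Pmaip1, Perp, Zmat3, Xpc, Rrm2b, Trp53inp1, Tnfrsf10b and Ddb2. The p53 decamer and the full site (a pair of decamers with 0 to 13 bases between them) were searched on both strands, as was the E-box CACGTG bound by the clock factors Clock and Arntl and the D-box (TTAT followed at once by GTAA) bound by the clock output Dbp, and no match of one motif overlapped another except the decamers within the full site. Capitals mark the full site with its spacer in Cdkn1a (chr17:29090729-29090978, plus strand), the decamer and then the E-box in Bax (chr7:45466899-45467148, minus strand), and the decamer before the second start of Sesn1 (chr10:41887189-41887438, plus strand). Ddit4 (chr10:59951771-59952020, minus strand) has no capitals.
Cdkn1a: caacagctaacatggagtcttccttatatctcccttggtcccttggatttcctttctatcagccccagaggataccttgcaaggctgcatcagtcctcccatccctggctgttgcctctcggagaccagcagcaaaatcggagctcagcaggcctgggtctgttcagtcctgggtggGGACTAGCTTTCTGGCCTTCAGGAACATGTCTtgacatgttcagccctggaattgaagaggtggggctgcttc
Bax: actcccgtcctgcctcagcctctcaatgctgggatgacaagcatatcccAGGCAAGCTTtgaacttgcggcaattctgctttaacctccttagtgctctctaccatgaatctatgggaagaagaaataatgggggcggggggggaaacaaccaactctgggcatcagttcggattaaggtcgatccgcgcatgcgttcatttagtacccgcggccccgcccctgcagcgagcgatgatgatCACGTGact
Sesn1: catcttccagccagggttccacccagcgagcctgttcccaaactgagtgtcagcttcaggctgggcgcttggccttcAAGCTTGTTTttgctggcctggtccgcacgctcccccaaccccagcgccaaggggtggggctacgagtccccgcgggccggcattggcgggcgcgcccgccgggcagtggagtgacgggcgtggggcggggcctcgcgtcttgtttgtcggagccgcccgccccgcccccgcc
Ddit4: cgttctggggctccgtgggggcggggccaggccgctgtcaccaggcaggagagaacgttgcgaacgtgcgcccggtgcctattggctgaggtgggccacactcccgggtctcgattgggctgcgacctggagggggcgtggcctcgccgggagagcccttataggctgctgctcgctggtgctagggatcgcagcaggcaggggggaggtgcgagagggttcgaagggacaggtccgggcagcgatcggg

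The full site of Cdkn1a lay 73 to 42 bases before the first of its 2 starts. It was the single full site among the 33 member windows, against 21 windows (0.06%) of all 32851 in the table. A decamer stood in 11 of the 33 windows (33.3%), those of Trp53, Mdm2, Ppm1d, Cdkn1a, Ccng1, Gadd45a, Bax, Aen, Ei24, Sesn1 and Polk, against 7.13% of all windows. An E-box stood in 5 member windows (15.2%), those of Bax, Bbc3, Aen, Gdf15 and Fas, against 6.02% of all. The D-box stood in 0 member windows, against 0.82% of all. The motifs were chosen after the values of the genes were seen, and a match is a description of the letters only.

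The comparison the study was built for is between Space and Ground pups, and no member was called in it. In set A, edgeR called 0 of 33 members at an adjusted p under 0.05, and 1 of all genes (0.00749%). In set B, it called 0 of 33, against 0.0225% of all genes. Over the mean of both sets it called 0 of 33, against 0.0225%. Unadjusted p-values under 0.05 were found for 3 members in replicates 1 to 3 (Gadd45a, Rrm2b and Plk2), where 9.67% of all genes had one. There were 4 in replicates 4 to 6 (Fdxr, Ppm1d, Gadd45a and Epha2), against 13.9% of all genes. For the mean of the sets there were 4 (Eda2r, Fdxr, Xpc and Plk2), against 16.0%. DESeq2 called none of the members in these comparisons. limma voom called Gadd45a, and a fit of replicates 1 to 3 alone called Plk2, both lower in Space pups of replicates 1 to 3. Without Space-4, Ground-5 and Ground-6, edgeR called Plk2 in replicates 1 to 3 and over both sets, again lower in Space pups. Each of these calls was 1 of 33 members. The share of all genes called with each is given in the section on processing.

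Precision differed between the members. The 95% interval of the mean Space against Ground change lay within a 2-fold change either way for 30 of the 33 members. Within a set it did so for 22 members in replicates 1 to 3 and 24 in replicates 4 to 6, with a median SE of 0.23 in both. For Trp53 the interval over both sets was -0.21 to 0.26, and for Mdm2 -0.17 to 0.22. For Cdkn1a it was -0.84 to 0.55, so a moderate difference in Cdkn1a was not excluded by these libraries. The median member change was -0.16 in replicates 1 to 3 and 0.00 in replicates 4 to 6, beside -0.01 and -0.01 over all genes tested. Gadd45a, a growth arrest and DNA damage gene, had changes of opposite sign in the sets (-1.32 ± 0.37 and 0.69 ± 0.32). The difference between the sets was not called in edgeR (2.01 ± 0.48, adjusted p = 0.31). No member was called in that difference, and none of all genes (0%), while 3 members (Gadd45a, Gdf15 and Rrm2b) and 7.77% of all genes had an unadjusted p under 0.05. DESeq2 called 1 member there, Gadd45a.

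Both kinds of pup differed from BDF1 in a few members, and Ddit4 was the one member called in both sets. Fewer cells of a type and less RNA per cell cannot be told apart in this bulk tissue. In set A, Space pups had 3 of 33 members called, all higher, where 4.64% of all genes were called (2.85% higher and 1.80% lower). Ground pups had 3 of 33 called, also higher, where 1.92% of all genes were called (1.14% higher and 0.786% lower). In both cases the 3 were Ddit4, Trp53inp1 and Plk3. In set B, Space pups had 6 of 33 called, 4 higher and 2 lower, against 11.9% of all genes (6.43% higher and 5.49% lower). Ground pups had 9 of 33 called, 6 higher and 3 lower, against 15.2% (7.86% higher and 7.35% lower). For the mean of the sets the counts were 5 members in Space pups (2 higher, 3 lower), against 12.9% of all genes (7.00% higher and 5.91% lower). They were 4 in Ground pups (2 higher, 2 lower), against 14.6% (7.26% higher and 7.35% lower). As shares of the 33 these counts were 9.09% in replicates 1 to 3 for both kinds of pup, 18.2% and 27.3% in replicates 4 to 6, and 15.2% and 12.1% over both sets, each resting on 3 to 9 genes. Space and Ground pups were compared with the same BDF1 libraries, so their values are not independent.

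Under another library scaling more members were called lower. When libraries were scaled by total counts rather than TMM, the median change of all genes against BDF1 in replicates 4 to 6 moved from 0.01 to -0.39 in Space pups and from 0.01 to -0.46 in Ground pups. The share of called genes that were higher went from 54.0% to 6.77% and from 51.7% to 6.55%. In set A the median moved to -0.13 in Space pups and -0.06 in Ground pups, and the share that were higher in Space pups fell from 61.3% to 39.8%. Of the members, 9 were then called in Space pups of set B, 2 of them higher, where 37.3% of all genes were called, and 11 in Ground pups, 2 of them higher, where 45.9% were. In set A, 2 members were called in Space pups (Ddit4 higher and Plk2 lower; 3.18% of all genes) and 2 in Ground pups (Ddit4 and Plk3, both higher; 1.03% of all genes). The 5 hepatocyte markers, Alb among them, summed to 212146 to 370641 CPM in pups of replicates 4 to 6, against 71062 to 92190 CPM in BDF1 of that set and 53566 to 83889 CPM in all libraries of replicates 1 to 3. Alb made up most of that sum, at 193500 to 341910 CPM in pups of set B against 57365 to 75504 CPM in BDF1. The marker Cps1, of the urea cycle, was lower in those pups (2014 to 4305 CPM) than in BDF1 (4531 to 4998 CPM), and Ttr overlapped. Apoa1 (9125 to 19761 against 4288 to 5381 CPM) and Hnf4a (562 to 661 against 466 to 510 CPM) were higher in those pups than in BDF1. The changes below are relative to the TMM scaling, which centres the median gene near 0.

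**Figure D1:**
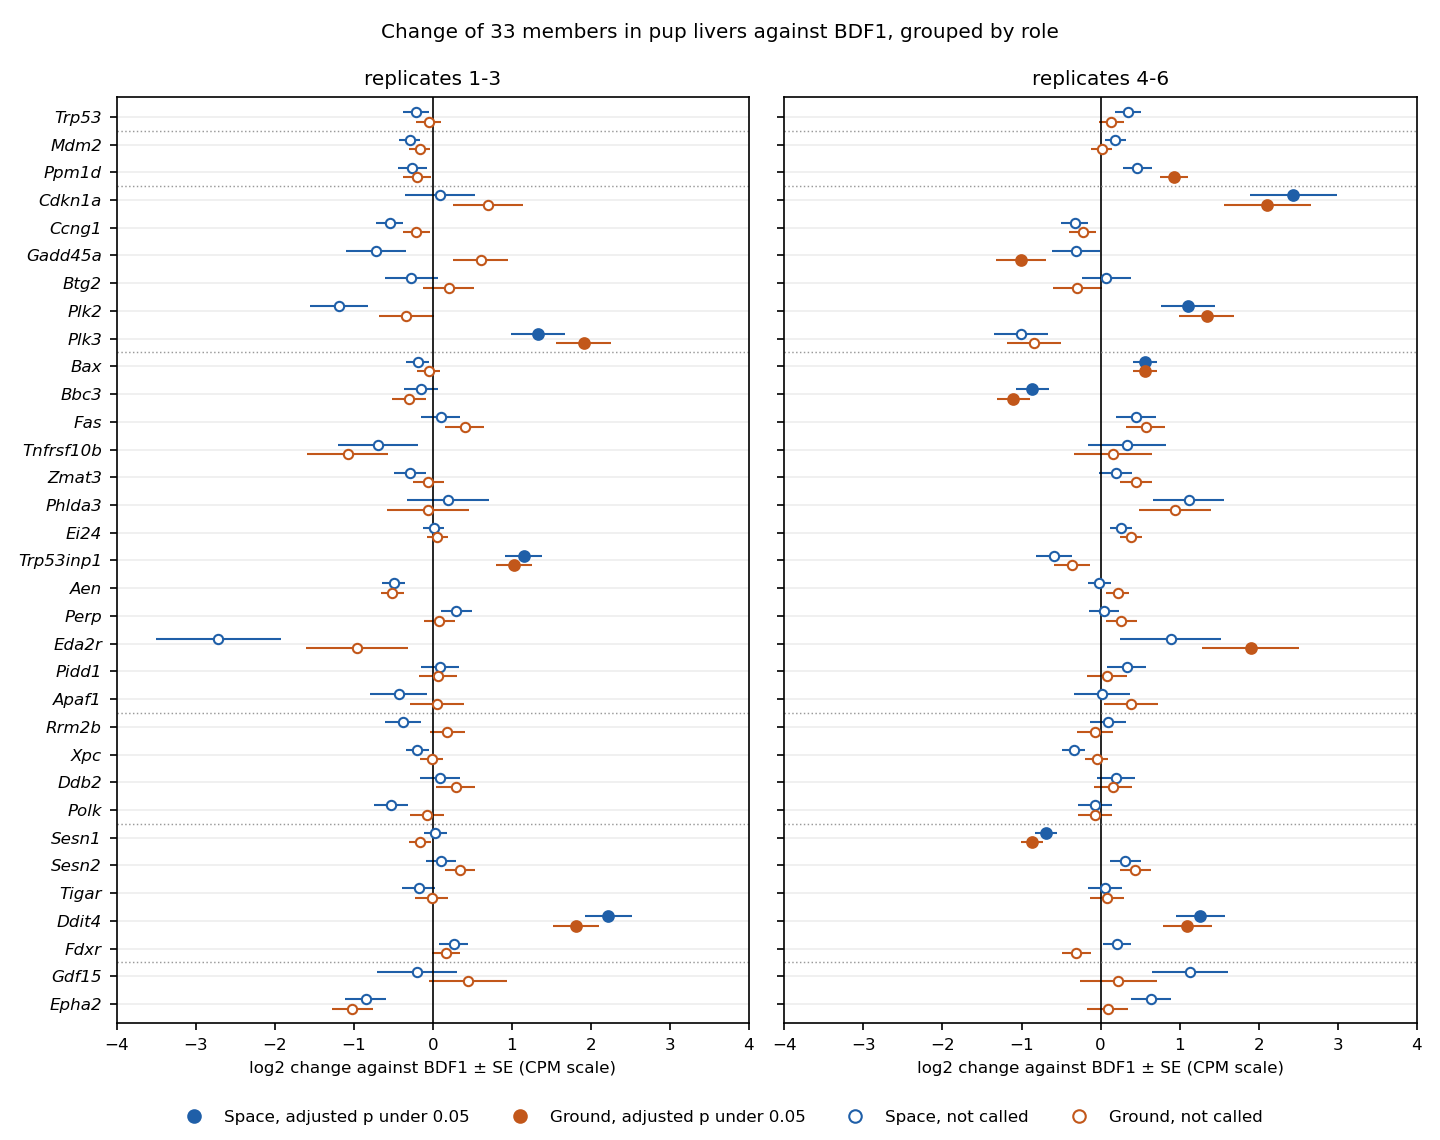
Log2 change against BDF1 with its SE for each of the 33 members, in replicates 1 to 3 (left) and 4 to 6 (right). Blue is Space, orange is Ground, filled points are called, and dotted lines separate the roles. Ddit4 is filled in both sets, Plk3 and Trp53inp1 on the left only, and Cdkn1a, Bax, Plk2, Bbc3 and Sesn1 on the right only, as are Ppm1d, Eda2r and Gadd45a for Ground.

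Trp53 itself (chr11:69580359-69591873 of mm10, plus strand) was not called between any groups. In set A its CPM was 21.2, 19.9 and 21.4 in Space pups, 25.9, 27.7 and 16.2 in Ground pups, and 22.8, 26.2 and 23.5 in BDF1. In set B it was 22, 30.2 and 25.2 in Space pups, 21.9, 21.2 and 24.0 in Ground pups, and 21, 18.7 and 21.3 in BDF1. The Space and BDF1 libraries of replicates 1 to 3 did not overlap, and those of replicates 4 to 6 did not either, with Space lower in the first set and higher in the second. Neither difference was called: the change was -0.21 ± 0.16 in replicates 1 to 3 (adjusted p = 0.5) and 0.35 ± 0.16 in replicates 4 to 6 (adjusted p = 0.16). Over both sets the change of Trp53 against BDF1 was 0.07 in Space and 0.04 in Ground pups. Neither was called (edgeR adjusted p = 0.73 and 0.84), so no direction is given. The values were -0.19 and -0.23 with total counts, a scaling that also lowered the median of all genes.

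Of the inhibitors, Mdm2 (chr10:117688875-117710758, minus strand) was not called between groups in either set. Its CPM in replicates 1 to 3 was 24.1, 25.7 and 27.9 in Space pups, 29.1, 28.5 and 27.2 in Ground pups, and 31.8, 30.0 and 33.4 in BDF1. In set B it was 30.3, 24.9 and 25.7, then 28.8, 18.3 and 24.6, then 24.7, 22 and 24.3 in the same order. The pup libraries of the first set all stood below BDF1, with changes of -0.29 ± 0.13 in Space and -0.17 ± 0.13 in Ground pups. In the second set the 3 Space libraries stood just above BDF1 and the Ground libraries overlapped it. With total counts Mdm2 was called lower in Ground pups over both sets (-0.34, adjusted p = 0.045), where with TMM its change was -0.08. Ppm1d (chr11:85311244-85347066, plus strand) encodes the phosphatase Wip1, which turns p53 signalling off. It rose in Ground pups of replicates 4 to 6, at 7.18, 5.4 and 6.49 CPM against 2.71, 3.67 and 3.63 in BDF1, a change of 0.93 ± 0.18 (adjusted p = 0.0034). Space pups had 4.53, 4.39 and 4.91 CPM in that set, above all 3 BDF1 libraries, with a change of 0.47 that was not called. In set A, Ppm1d was at 4.30, 2.83 and 3.87 CPM in Space pups. Ground pups had 4.24, 3.85 and 3.39 CPM there, and BDF1 had 4.64, 4.12 and 4.44. With total counts the rise in Ground pups was 0.47 and was not called (adjusted p = 0.087).

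Among the 6 genes of cell cycle arrest, Cdkn1a (chr17:29090976-29100727, plus strand) had the widest range of level. It encodes p21, an inhibitor of cyclin-dependent kinases. In set B its CPM was 19.4, 3.43 and 9.71 in Space pups, 8.75, 7.90 and 8.98 in Ground pups, and 2.71, 0.940 and 2.32 in BDF1. All 6 pup libraries stood above all 3 BDF1 libraries. Cdkn1a rose by 2.44 ± 0.55 in Space pups (5.41-fold, adjusted p = 0.011) and by 2.11 ± 0.55 in Ground pups (4.32-fold, adjusted p = 0.018). In set A it was at 43.2, 66.3 and 41.4 CPM in Space pups, 108, 46.6 and 75.4 in Ground pups, and 35.6, 32.7 and 73.1 in BDF1. These groups overlapped, and no change was called in that set (0.09 ± 0.44 in Space and 0.70 ± 0.44 in Ground pups). The difference of the pup change between the sets was not called either, at 2.34 ± 0.71 (adjusted p = 0.079) in Space and 1.41 ± 0.71 (adjusted p = 0.32) in Ground pups. The call in Space pups was lost without Space-4 and without BDF1-5. That in Ground pups was lost without BDF1-5, and over 18 fits that each left out 1 library the changes ran from 1.74 to 2.87 and from 1.77 to 2.40, with adjusted p up to 0.062 and 0.082. Neither was called with limma voom or without Space-4, Ground-5 and Ground-6 together, and the Ground call was also lost with each set fitted alone (adjusted p up to 0.10 in Space and 0.064 in Ground pups over these settings). Over both sets Cdkn1a rose by 1.26 ± 0.35 in Space pups and 1.41 ± 0.35 in Ground pups (adjusted p = 0.028 and 0.015). Both of these calls were lost with group alone (0.31 and 0.80, adjusted p = 0.89 and 0.68) and with group plus set as additive terms. The Space call was also lost with voom, without Space-4, Ground-5 and Ground-6 together, and in 5 of 18 fits without 1 library, those without Space-2, Space-4, BDF1-1, BDF1-2 or BDF1-5 (adjusted p up to 0.086).

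Plk2 and Plk3, polo-like kinases that respond to stress, moved in different sets. Plk3 (chr4:117128655-117133963, minus strand) rose in pups of replicates 1 to 3. Its CPM there was 47.3, 44.0 and 48.5 in Space pups, 58.0, 38.5 and 112 in Ground pups, and 15.1, 20.8 and 19.7 in BDF1. Every pup library was above every BDF1 library, with rises of 1.33 ± 0.34 in Space (adjusted p = 0.036) and 1.91 ± 0.35 in Ground pups (adjusted p = 0.011). In set B the CPM was 17.8, 21.9 and 15.9 in Space pups, 14.9, 13.6 and 34.2 in Ground pups, and 36.6, 32.1 and 43.1 in BDF1. There the Space libraries were all below BDF1, and Ground-6 reached into its range. The changes in that set were -1.01 ± 0.34 and -0.84 ± 0.34, not called (adjusted p = 0.064 and 0.11). The Space call of replicates 1 to 3 was lost with total counts and without any 1 of the 6 Space and BDF1 libraries of that set (adjusted p up to 0.13). The Ground call was lost without BDF1-2 (adjusted p up to 0.059).

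Plk2 (chr13:110395046-110400844, plus strand) rose in pups of replicates 4 to 6. Its CPM was 39.5, 16.6 and 12.7 in Space pups, 21.6, 42.6 and 16.1 in Ground pups, and 10.3, 11.4 and 9.88 in BDF1. Every pup library was above BDF1, and the highest were Space-4 and Ground-5, both Serpina6-high. The other Serpina6-high library, Ground-6, was the lowest of the Ground pups in that set, at 16.1 CPM. The rises were 1.11 ± 0.35 in Space (adjusted p = 0.048) and 1.34 ± 0.35 in Ground pups (adjusted p = 0.016). In set A it was at 5.12, 5.54 and 5.27 CPM in Space pups, 9.51, 9.55 and 9.69 in Ground pups, and 10.8, 13.1 and 12.3 in BDF1. There every Space library was below every Ground library, which were below every BDF1 library. None of these differences was called: the change was -1.18 ± 0.37 (adjusted p = 0.079) for Space against BDF1 and -0.85 ± 0.37 (adjusted p = 0.48) for Space against Ground. The rise in Space pups fell to 0.47 without Space-4. Leaving out 1 library ended that call in 13 of 18 fits, all but those without Space-5, Space-6, Ground-4, Ground-5 or Ground-6, with adjusted p up to 0.33. It was also lost with total counts, with voom and with each set fitted alone (0.46 to 1.40 over 11 settings, adjusted p up to 0.17). The call in Ground pups was lost with each set fitted alone (adjusted p = 0.095) and without Ground-5, BDF1-4 or BDF1-6 (0.84 to 1.60 over the 18 fits, adjusted p up to 0.0995).

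The other arrest genes moved less against BDF1. Gadd45a (chr6:67035096-67037457, minus strand) fell in Ground pups of replicates 4 to 6, at 4.32, 7.04 and 3.04 CPM against 10.5, 9.18 and 9.22 in BDF1. The change was -1.01 ± 0.31 (adjusted p = 0.039), and Space pups, at 7.89, 8.91 and 6.53 CPM, were also below BDF1 in all 3 libraries without a call. In set A Gadd45a was at 1.06, 1.57 and 1.02 CPM in Space pups, 2.83, 1.85 and 4.43 in Ground pups, and 1.31, 1.92 and 2.77 in BDF1. The call was lost without Ground-4, Ground-6, BDF1-2, BDF1-4, BDF1-5 or BDF1-6 (adjusted p up to 0.15), and also with each set fitted alone and without Space-4, Ground-5 and Ground-6 together (adjusted p up to 0.10). Exons of E230016M11Rik on the other strand covered 19.1% of the exon length of Gadd45a, and the strand setting of the counts is not given in the sources used here. Such overlaps on the other strand were 23.8% for Ddb2 (by Acp2), 8.0% for Rrm2b and 7.7% for Cdkn1a. They were 6.7% for Ei24, 3.3% for Plk3 and 3.3% for Tigar. Ccng1 (chr11:40748552-40755311, minus strand), which encodes cyclin G1, was called over both sets in Space pups only, where it fell by 0.44 ± 0.12 (adjusted p = 0.026). Its CPM in Space pups was 25.9, 26.6 and 23.5, then 25.7, 24.3 and 28.8 in the second set. BDF1 had 32.0, 36.7 and 42.3, then 40.8, 29.1 and 29.1, so that Space was below BDF1 in every library of both sets. Ground pups had 35.3, 26.5 and 34.1, then 35.5, 26.3 and 22.9 CPM, and the difference between Space and Ground was not called (-0.22 ± 0.12, adjusted p = 0.39). The call was lost without Space-1, Space-3, Space-4, Space-5, BDF1-3 or BDF1-4 (adjusted p up to 0.079), and with group alone (adjusted p = 0.054). Btg2, an anti-proliferative gene, was not called against BDF1.

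**Figure D2:**
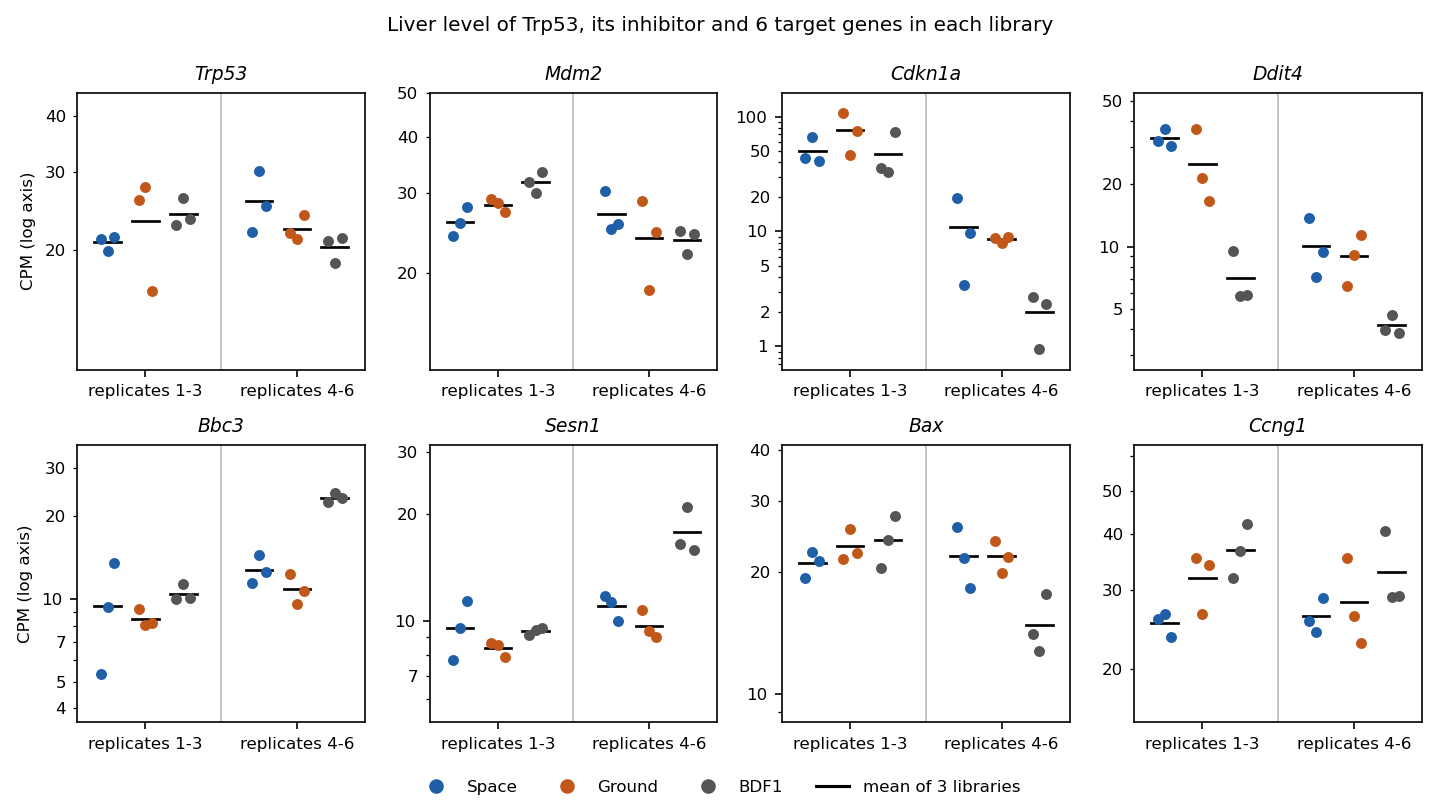
CPM on a log axis in each of the 18 libraries for Trp53, Mdm2 and 6 targets, with replicates 1 to 3 left and 4 to 6 right of the grey line in each panel and a bar at the mean of 3 libraries. Cdkn1a drops from 32.7 to 108 CPM in the first set to 0.940 to 19.4 CPM in the second, and Bbc3 and Sesn1 are highest in the 3 BDF1 libraries of replicates 4 to 6.

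Of the 14 apoptosis genes, 13 were tested, and those called moved in both directions. Bbc3 (chr7:16308393-16318205, plus strand) encodes Puma, a BH3-only protein that binds anti-apoptotic Bcl2 proteins. It fell in pups of replicates 4 to 6, where its CPM was 11.4, 14.4 and 12.6 in Space pups, 12.3, 9.61 and 10.7 in Ground pups, and 22.5, 24.3 and 23.3 in BDF1. The groups did not overlap, and the changes were -0.86 ± 0.21 in Space (adjusted p = 0.016) and -1.10 ± 0.21 in Ground pups (adjusted p = 0.0030). In set A it was at 5.35, 9.38 and 13.5 CPM in Space pups, 9.21, 8.07 and 8.18 in Ground pups, and 9.98, 11.4 and 10.1 in BDF1. There the 3 Ground libraries were below BDF1 and Space overlapped it, with no call. The difference of the Bbc3 change between the sets was not called (-0.71 ± 0.30, adjusted p = 0.21 in Space and -0.80 ± 0.30, adjusted p = 0.18 in Ground pups). The Space call was lost without Space-4 or BDF1-5 (adjusted p up to 0.062), and the Ground call without Space-4, Ground-5 and Ground-6 together (adjusted p = 0.087). Over both sets Bbc3 fell by 0.51 ± 0.15 in Space (adjusted p = 0.036) and by 0.70 ± 0.15 in Ground pups (adjusted p = 0.0066). The Space call over both sets was lost in 5 of 12 settings (adjusted p up to 0.19) and in 9 of 18 fits without 1 library (adjusted p up to 0.080), those without Space-2, Space-4, Space-6 or any 1 of the 6 BDF1 libraries. The Ground call was lost with group alone and without Space-4, Ground-5 and Ground-6 together (adjusted p up to 0.087).

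Bax (chr7:45461697-45466898, minus strand) encodes the protein that opens the outer mitochondrial membrane, and it moved the other way. In set B its CPM was 25.8, 21.6 and 18.2 in Space pups, 23.9, 19.9 and 21.8 in Ground pups, and 14.1, 12.8 and 17.6 in BDF1. All 6 pup libraries were above BDF1, with rises of 0.56 ± 0.15 in Space (adjusted p = 0.024) and 0.56 ± 0.15 in Ground pups (adjusted p = 0.018). In set A the groups overlapped, at 19.4, 22.4 and 21.3, then 21.5, 25.6 and 22.3, then 20.5, 23.9 and 27.5 CPM in the same order. With total counts the rises were 0.16 and 0.11 and were not called, nor were they with each set fitted alone, and the Space rise was not called without Space-4, Ground-5 and Ground-6 together. The Space call was also lost without Space-4, Space-5, BDF1-4 or BDF1-5 (adjusted p up to 0.11), and the Ground call without Ground-4, BDF1-4 or BDF1-5 (adjusted p up to 0.082). Gm45808 shared 12.2% of the exon length of Bax on the same strand.

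Trp53inp1 (chr4:11156431-11174379, plus strand), a stress-induced p53 partner, rose in pups of replicates 1 to 3. Its CPM was 114, 104 and 95.3 in Space pups, 104, 91.7 and 92.2 in Ground pups, and 35, 50.8 and 55.3 in BDF1. The groups were far apart, with rises of 1.15 ± 0.23 in Space (2.22-fold, adjusted p = 0.011) and 1.03 ± 0.23 in Ground pups (2.04-fold, adjusted p = 0.029). In set B it was at 27.9, 29.5 and 44.2 CPM in Space pups, 51.6, 32.6 and 35 in Ground pups, and 68.5, 39.1 and 45.3 in BDF1, which overlapped the pups, with no call. The Space call was lost with total counts and without BDF1-1 (adjusted p up to 0.056 and 0.054). The Ground call was lost with total counts and without Ground-1, Ground-3, BDF1-1, BDF1-2 or BDF1-3 (adjusted p up to 0.13 without 1 library).

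Eda2r (chrX:97333840-97377216, minus strand), an X-linked receptor of the tumour necrosis factor family, was among the lowest members. In set B its CPM was 2.26, 0.783 and 1.10 in Space pups, 2.68, 2.83 and 2.69 in Ground pups, and 1.33, 0.313 and 0.554 in BDF1. It rose in Ground pups of that set by 1.90 ± 0.61 (adjusted p = 0.046), and Space pups overlapped BDF1. In set A it was at 0.177, 0.315 and 0.0538 CPM in Space pups, 0.634, 0.475 and 0.729 in Ground pups, and 0.187, 2.09 and 1.36 in BDF1. A level of 3 counts was 0.134 to 0.234 CPM, so 2 of these 3 Space libraries were close to or under what a count of 0 allows. Leaving out 1 library ended the Ground call in 12 of 18 fits (adjusted p up to 0.17), those without Space-1, Space-2, Space-3, Space-6, Ground-1, Ground-3, Ground-4, Ground-5, Ground-6, BDF1-3, BDF1-5 or BDF1-6. It was also lost with total counts, with each set fitted alone and without Space-4, Ground-5 and Ground-6 together (adjusted p up to 0.17). The 9 other apoptosis genes tested were not called against BDF1 in any set. They are Fas, Tnfrsf10b, Zmat3, Phlda3, Ei24, Aen, Perp, Pidd1 and Apaf1.

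Fas, Perp and Ei24 were highest in the Serpina6-high libraries. The death receptor gene Fas had 30.3, 28.3 and 27.4 CPM in Space-4, Ground-5 and Ground-6, against 10.7 to 19.99 CPM in the other 15. Perp, an adhesion and apoptosis gene, had 136, 142 and 133 CPM there, against 75.9 to 103 CPM. Ei24, a gene of the endoplasmic reticulum, had 264, 281 and 240 CPM, against 171 to 215 CPM. These are the libraries with the lowest scaling factors, and the part of the scaling in these levels was not tested.

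No gene of the DNA repair group (Rrm2b, Xpc, Ddb2 and Polk, of which Xpc and Ddb2 encode damage sensors of nucleotide excision repair) was called between any 2 groups. Their changes against BDF1 ran from -0.53 to 0.29 over both sets and both kinds of pup. Rrm2b, the p53-inducible subunit of ribonucleotide reductase, was at 1.72 to 3.80 CPM in all 18 libraries. Polk, a translesion DNA polymerase, was at 2.90 to 5.84 CPM.

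Of the 5 genes of metabolism and stress, Ddit4 rose in pups in both sets. Ddit4 (chr10:59949669-59951834, minus strand) encodes Redd1, which restrains the growth kinase mTORC1. In set A its CPM was 32.1, 36.6 and 30.6 in Space pups, 36.7, 21.3 and 16.5 in Ground pups, and 9.55, 5.76 and 5.85 in BDF1. In set B it was 13.7, 7.10 and 9.42 in Space pups, 6.48, 9.15 and 11.3 in Ground pups, and 3.99, 4.70 and 3.83 in BDF1. Every pup library in each set was above every BDF1 library of that set. The rises in replicates 1 to 3 were 2.22 ± 0.29 in Space (4.67-fold, adjusted p = 0.00049) and 1.81 ± 0.29 in Ground pups (3.51-fold, adjusted p = 0.0063). In set B they were 1.26 ± 0.31 (2.39-fold, adjusted p = 0.017) and 1.10 ± 0.31 (2.14-fold, adjusted p = 0.026). The difference of the rise between the sets was not called (-0.96 ± 0.42, adjusted p = 0.23 in Space pups and -0.71 ± 0.42, adjusted p = 0.42 in Ground pups). Over both sets it was 1.74 ± 0.21 in Space (adjusted p = 0.00022) and 1.45 ± 0.21 in Ground pups (adjusted p = 0.00066). The Space call of replicates 1 to 3 held in each of 11 other settings and 18 fits without 1 library, and the Ground call there was lost only without BDF1-2 (adjusted p = 0.052). In set B the calls were lost without Space-4 or BDF1-4 in Space pups (adjusted p up to 0.081). They were lost without Ground-5, Ground-6, BDF1-4, BDF1-5 or BDF1-6 in Ground pups (adjusted p up to 0.11). With limma voom, and separately without Space-4, Ground-5 and Ground-6, both set B calls of Ddit4 were lost, and that in Ground pups also with total counts, and the changes went as low as 0.84 in Space and 0.59 in Ground pups over 11 settings (adjusted p up to 0.074 and 0.38). The Ground call over both sets was lost with group as the one term (adjusted p = 0.054).

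Sesn1 (chr10:41809935-41908424, plus strand) encodes sestrin 1, which like Redd1 lowers mTORC1 activity, and it fell in pups of set B. In set B its CPM was 11.7, 11.3 and 10.0 in Space pups, 10.7, 9.35 and 8.98 in Ground pups, and 16.4, 20.9 and 15.9 in BDF1. The groups did not overlap, with changes of -0.69 ± 0.14 in Space (adjusted p = 0.0054) and -0.87 ± 0.14 in Ground pups (adjusted p = 0.00093). In set A, Sesn1 was at 7.77, 9.56 and 11.3 CPM in Space pups. Ground pups had 8.63, 8.55 and 7.92 CPM there and BDF1 had 9.13, 9.39 and 9.50, with no call. Both calls of replicates 4 to 6 held in each of 11 other settings and in each of 18 fits without 1 library (adjusted p up to 0.044). Over both sets Sesn1 fell by 0.33 ± 0.10 in Space (adjusted p = 0.038) and by 0.52 ± 0.10 in Ground pups (adjusted p = 0.0033). Over both sets the Space call was lost in 5 of 12 settings (adjusted p up to 0.23) and in 9 of 18 fits without 1 library (adjusted p up to 0.11), those without Space-1, Space-2, Space-5, Space-6 or any of BDF1-1 to BDF1-5. The Ground call was lost with group alone (adjusted p = 0.085). Sesn2, Tigar and Fdxr were not called against BDF1. Sesn2 was at 5.24 to 11.7 CPM, Tigar, a regulator of glycolysis, at 5.81 to 12.6 CPM, and Fdxr, a mitochondrial electron donor to cytochromes P450, at 15.6 to 33 CPM over all 18 libraries.

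The secreted factor Gdf15 and the receptor Epha2 were not called against BDF1 in either set. Gdf15, a stress hormone that acts on appetite, ranged most in replicates 4 to 6, at 10.1, 40.7 and 24.6 CPM in Space pups, 27.0, 6.84 and 6.29 in Ground pups, and 14.4, 7.48 and 12.8 in BDF1. The groups overlapped. Epha2, an ephrin receptor kinase, was at 9.41, 10.3 and 11.6 CPM in Space pups of replicates 1 to 3, 12, 6.17 and 9.59 in Ground pups, and 22.2, 15.2 and 19.0 in BDF1. All 6 pup libraries were below BDF1 there, with changes of -0.85 ± 0.26 (adjusted p = 0.077) and -1.02 ± 0.26 (adjusted p = 0.056).

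Some of these changes against BDF1 differed between the sets themselves. In Space pups 4 of 33 members were called in the difference (replicates 4 to 6 minus 1 to 3), where 3.19% of all genes were. In Ground pups 3 of 33 were called, against 2.74%. Plk3 differed by -2.34 ± 0.48 in Space (adjusted p = 0.014) and -2.75 ± 0.48 in Ground pups (adjusted p = 0.0085). Trp53inp1 differed by -1.74 ± 0.33 (adjusted p = 0.0082) and -1.39 ± 0.33 (adjusted p = 0.031). For both genes the pups stood higher than BDF1 in the first set and had changes below 0 in the second. Plk2 differed by 2.29 ± 0.50 in Space pups (adjusted p = 0.020), Epha2 by 1.48 ± 0.37 in Space pups (adjusted p = 0.037) and Ppm1d by 1.13 ± 0.26 in Ground pups (adjusted p = 0.027). The Plk3 calls and that of Trp53inp1 in Space pups held in all fits without 1 library. The others were lost in some of them: Plk2 in 3 (without Space-1, Space-3 or BDF1-2), Trp53inp1 in Ground pups and Epha2 in 10 each, and Ppm1d in 6. Epha2 and Ppm1d were also lost with total counts, and Trp53inp1 in Ground pups without Space-4, Ground-5 and Ground-6 together.

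**Figure D3:**
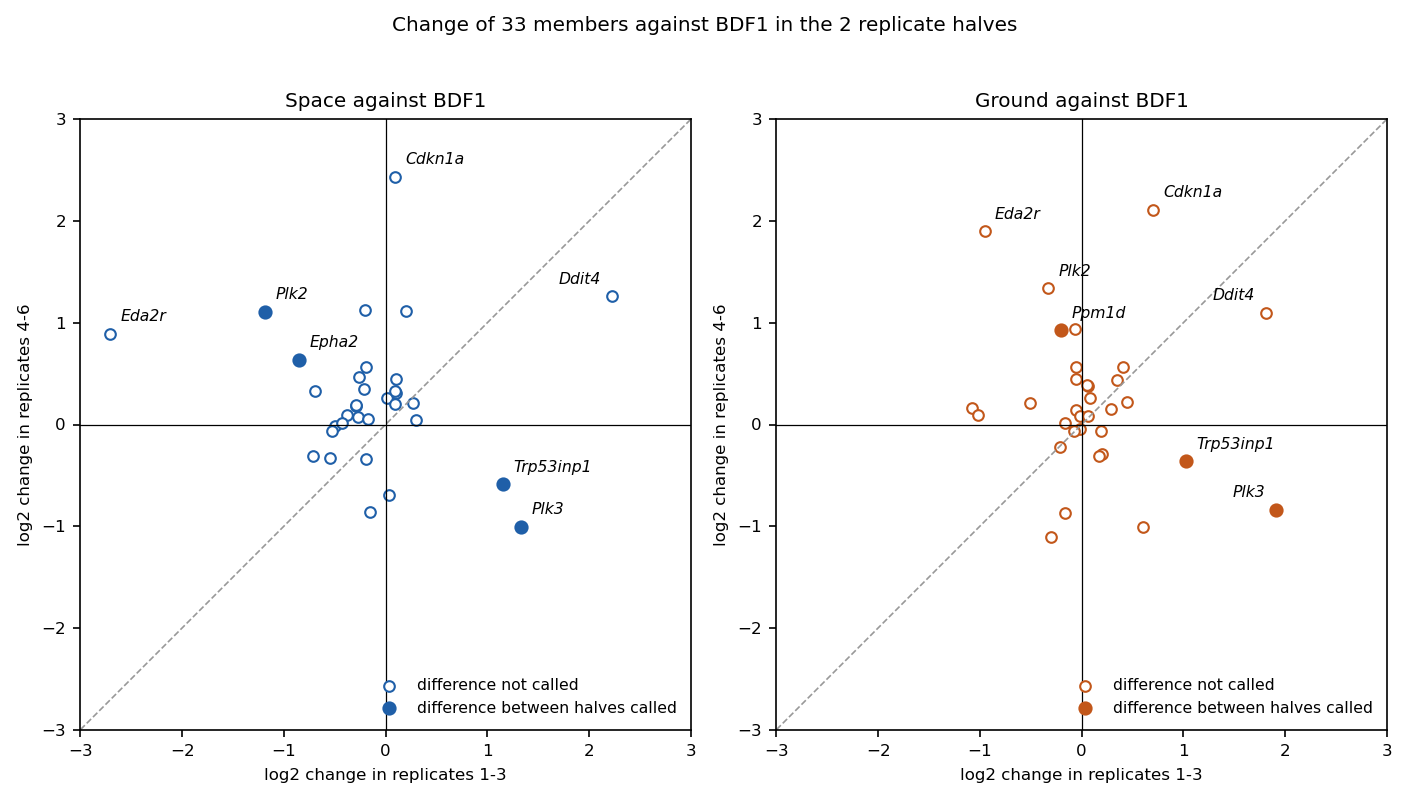
Log2 change against BDF1 in replicates 1 to 3 (horizontal) and 4 to 6 (vertical) for the 33 members, Space left and Ground right, with the line of equal change dashed. Filled points are called in the difference between sets: Plk3 and Trp53inp1 lie at lower right in both panels, Plk2 and Epha2 at upper left in Space, Ppm1d at upper left in Ground, and Ddit4 is positive on both axes.

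The sign of the change against BDF1 was the same in both sets for 16 of 33 members in Space pups (48.5%) and 15 of 33 in Ground pups (45.5%), against 57.5% and 59.9% of all genes tested. Across the 33 members, which are not independent replicates, Pearson's r between the sets was -0.11 in Space and -0.12 in Ground pups, against 0.18 and 0.20 over all genes. The median member change in Space pups was -0.20 in replicates 1 to 3 and 0.20 in replicates 4 to 6. In Ground pups it was -0.01 and 0.16, beside medians of all genes between 0.00 and 0.01. With total counts the medians of replicates 4 to 6 were -0.20 and -0.34, with the all-gene medians given above, so that the member medians again stood above those of all genes. In BDF1 itself, library BDF1-5 stood lowest of all 18 in the median deviation of the members (-0.21) and Space-4 highest (0.19), with 11 and 21 of 33 members above their own mean.

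The replicate sets themselves differed in more members than any groups did. Over the mean of the 3 groups, 20 of 33 members were called between replicates 4 to 6 and 1 to 3, 12 higher and 8 lower, where 38.0% of all genes were called (19.4% higher and 18.6% lower). Cdkn1a fell by 3.32 ± 0.29 in replicates 4 to 6 (adjusted p = 2.2e-07), and all 9 libraries of replicates 4 to 6 were below all 9 of replicates 1 to 3. Gadd45a rose by 1.87 ± 0.20 (adjusted p = 1.6e-06), Eda2r by 1.44 ± 0.40, Phlda3 by 1.16 ± 0.28, Plk2 by 1.13 ± 0.20, Btg2 by 0.96 ± 0.19 and Gdf15 by 0.91 ± 0.29. Ddit4 fell by 1.32 ± 0.17 (adjusted p = 1.6e-05), Trp53inp1 by 0.93 ± 0.13 and Plk3 by 0.69 ± 0.20. So Cdkn1a and Gadd45a, both arrest genes and both p53 targets with a decamer in their window, moved in opposite directions. Lists of other genes differed between the sets too, and their part in these member changes was not tested. Of the other reported targets 14 of 20 were called (9 higher and 5 lower) and of the regulators of Trp53 5 of 17. All 8 genes of dividing cells were higher in replicates 4 to 6, and 10 of 12 clock genes were called, among them Dbp, a clock output, which rose by 5.68. Of the glucocorticoid and fasting genes 8 of 10 were called, 7 of them lower, such as Tsc22d3 (-1.95), and 5 of 10 genes of ER stress fell, such as Nupr1 (-2.40).

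The other called members moved by less. Ddb2 (0.68), Bbc3 (0.65), Fas (0.49), Epha2 (0.46), Sesn1 (0.45) and Ei24 (0.23) were higher in replicates 4 to 6. Sesn2 (-0.39), Tigar (-0.39), Bax (-0.24) and Mdm2 (-0.20) were lower. The calls of Mdm2, Bax and Ei24 were lost in 13, 11 and 9 of the 18 fits without 1 library (adjusted p up to 0.084, 0.070 and 0.074), and that of Gdf15 without Ground-4 (adjusted p = 0.052). Total counts ended the calls of Fas, Sesn1, Epha2 and Gdf15. Without Space-4, Ground-5 and Ground-6 together those of Mdm2, Bax, Ei24, Fas, Epha2 and Tigar were lost. With group plus set as additive terms those of Mdm2, Bax, Epha2, Plk3 and Eda2r were lost, and with no filter on low counts those of Mdm2 and Ei24. Trp53 was not called, with a change of 0.00 and a 95% interval of -0.19 to 0.19. By role, 5 of 6 arrest genes, 7 of 13 apoptosis genes and 4 of 5 of metabolism and stress were called. So were 1 of 4 of DNA repair, 1 of 2 inhibitors and both secreted or receptor genes. Of all genes, 38.0% were called. With total counts fewer of the called members were higher, as was true of all called genes, and the change of Ei24 turned to -0.03. The group means moved the same way in all 3 groups for 13 of the 20 called members. Of the other 7, the BDF1 mean went against the call for Plk3 (18.5 ± 3.04 to 37.3 ± 5.53 CPM), Trp53inp1 (47.0 ± 10.7 to 51.0 ± 15.5 CPM), Plk2 (12.1 ± 1.15 to 10.5 ± 0.790 CPM), Epha2 (18.8 ± 3.48 to 14.2 ± 6.77 CPM) and Eda2r (1.21 ± 0.958 to 0.732 ± 0.531 CPM). For Mdm2 and Bax it was the Space mean. For Bbc3 and Sesn1 much of the difference stood in 1 group: in BDF1, Bbc3 went from 10.5 ± 0.774 to 23.4 ± 0.911 CPM (SD, n = 3) and Sesn1 from 9.34 ± 0.190 to 17.7 ± 2.76 CPM. The set explained more of the variance of log2 CPM among the members (median 27.7%) than among all genes (15.1%), and the group explained 13.1% against 15.9%.

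**Figure D4:**
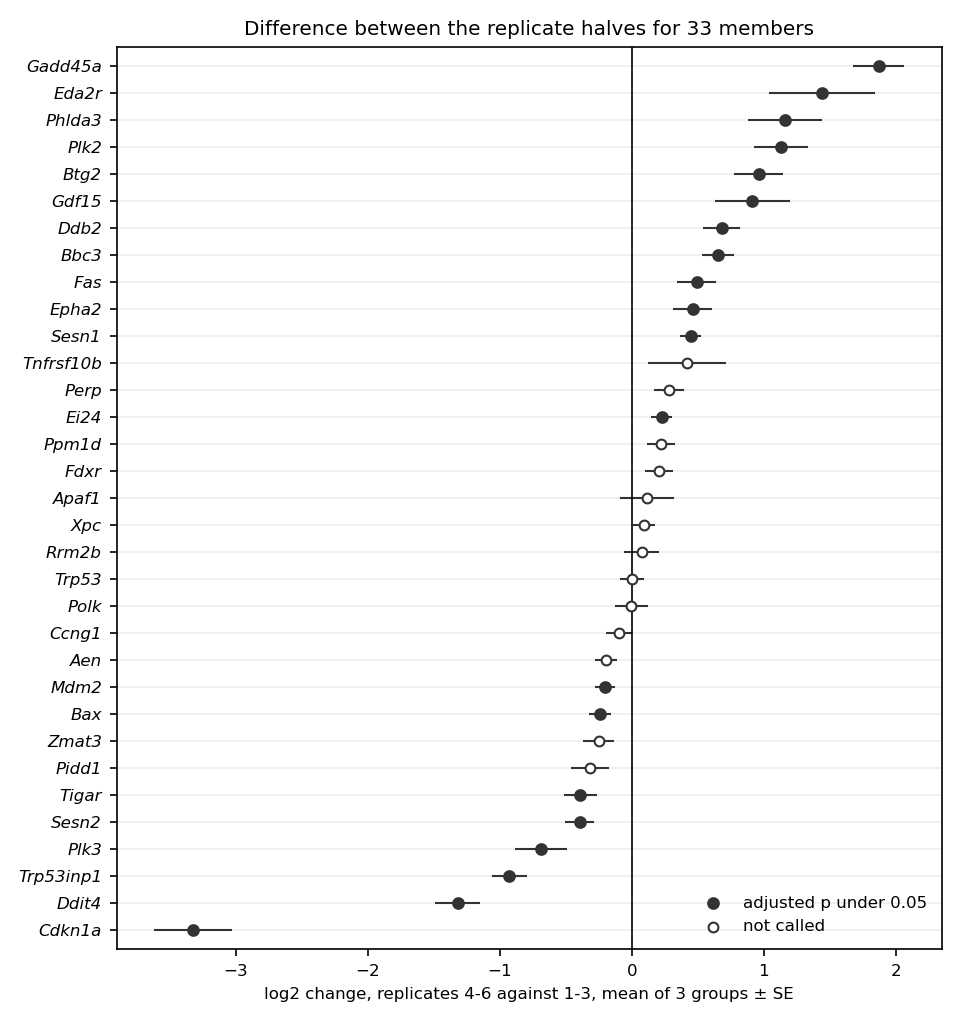
Log2 change between replicates 4 to 6 and 1 to 3 with its SE, over the mean of the 3 groups, for the 33 members in order of size. Filled points are the 20 called. Cdkn1a stands apart at -3.32, Gadd45a leads the rises at 1.87, and Trp53 sits near 0.00.

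**Figure D5:**
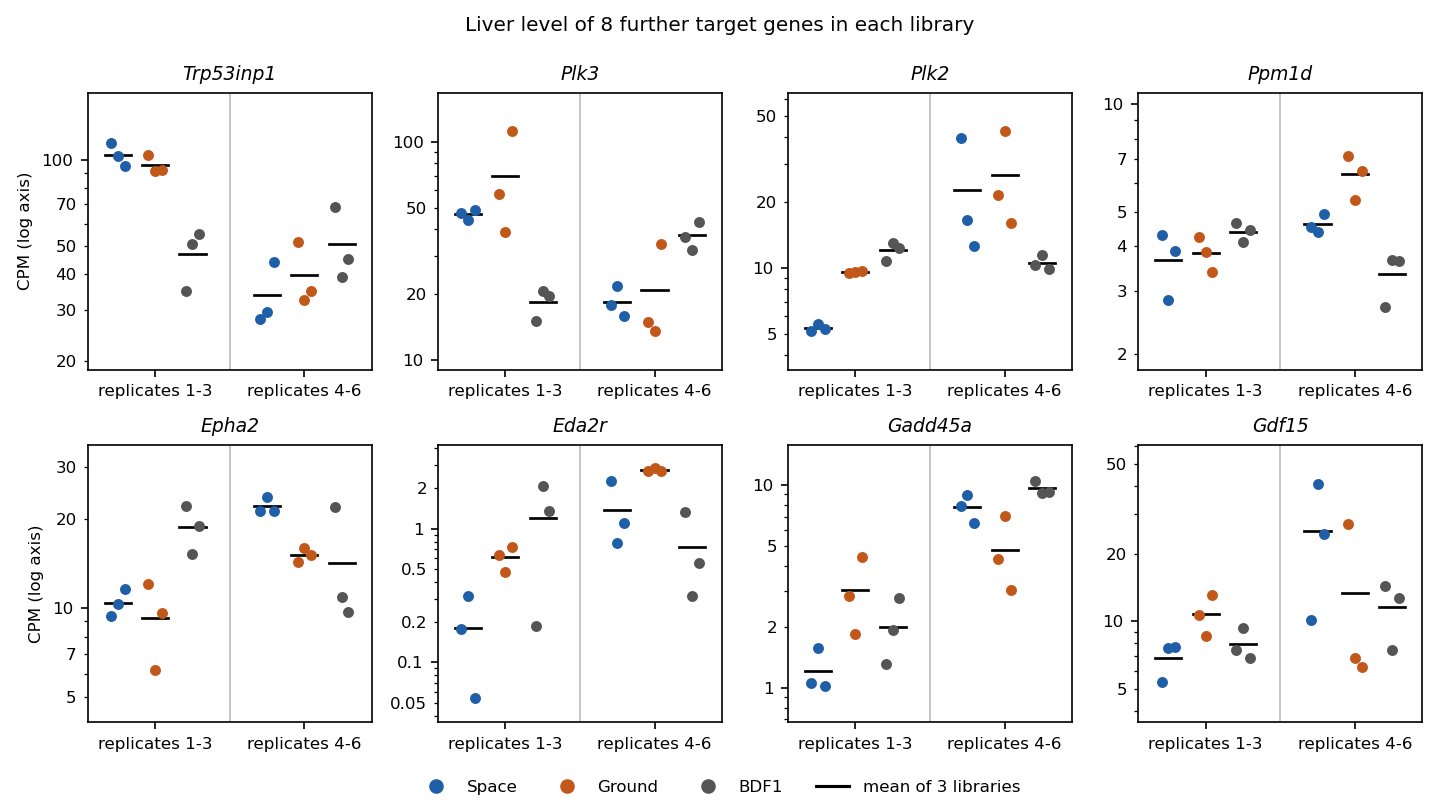
CPM on a log axis in each library for 8 further targets, laid out by set and group, with a bar at the mean of 3 libraries. In Trp53inp1 and Plk3 the pups stand above BDF1 in replicates 1 to 3 and not in 4 to 6. Plk2 is highest in Space-4 and Ground-5.

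Of 20 regulators of Trp53, 17 were tested. Rchy1, a ubiquitin ligase for p53, rose in replicates 4 to 6 in Space (0.52 ± 0.10, adjusted p = 0.0048) and Ground pups (0.36 ± 0.10, adjusted p = 0.024). It was the only regulator called within a set, and none fell there (11.9% of all genes were called in Space and 15.2% in Ground pups of set B). Over both sets Atm, the kinase that signals DNA double-strand breaks, and Rfwd3 fell in Space pups, by 0.54 and 0.35, and Rchy1 rose in Ground pups by 0.26. Of 24 other reported targets, 20 were tested. In set A, 1 fell in Space pups (Pml, -0.66) and none was called in Ground pups, beside 4.64% and 1.92% of all genes. In set B, 2 fell in Space pups, the iron reductase gene Steap3 (-0.67) and the glutathione peroxidase gene Gpx1 (-0.98). In Ground pups 1 rose, Trp53inp2 (1.15), and 5 fell: Steap3 (-1.03), Gpx1 (-1.55), Pml, Sulf2 and Dcxr. These 2 of 20 in Space and 6 of 20 in Ground pups stand beside the same 11.9% and 15.2%. Over both sets 5 were called in Space pups, where 12.9% of all genes were: Rps27l (0.35) and Bcl2l1 (0.49), an inhibitor of apoptosis, rose, and Steap3, Pml and Gpx1 fell. In Ground pups 4 were called, where 14.6% of all genes were: Casp1 (0.60) rose, and Steap3, Pml and Gpx1 fell. None of the regulators or other targets was called between Space and Ground pups in either set by edgeR, with unadjusted p under 0.05 for 2 of 17 and 1 of 20 genes in replicates 1 to 3 (9.67% of all genes) and 4 of 17 and 6 of 20 in replicates 4 to 6 (13.9%).

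Several lists of genes moved with the members, and their part in the member results was not tested. Genes of dividing cells summed to 9.45 to 71.3 CPM in pups of replicates 4 to 6, against 3.53 to 3.90 CPM in BDF1 and 2.2 to 7.33 CPM in all libraries of replicates 1 to 3. Of the 8 tested, 7 rose in both kinds of pup in replicates 4 to 6. Mki67 rose by 5.42 in Space and 5.41 in Ground pups. Of all genes, 11.9% were called there in Space and 15.2% in Ground pups. In replicates 1 to 3, 0 of 8 were called, beside 4.64% and 1.92% of all genes. An unadjusted edgeR p under 0.05 was found there for 0 in Space and 1 in Ground pups (19.3% and 15.9% of all genes). Replicates 4 to 6 are the set in which Cdkn1a, which blocks division, was higher in pups. Of 12 clock genes, 7 rose in Space and 3 in Ground pups of replicates 1 to 3, beside 4.64% and 1.92% of all genes. Plk3 and Trp53inp1 rose in that set. Per2 rose by 2.19 and 2.2 there, and Ciart by 3.52 in Space pups. In set B, 2 clock genes rose and 1 fell in Space pups, beside 11.9% of all genes called. In Ground pups 1 rose and 2 fell, beside 15.2%.

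Of 10 glucocorticoid and fasting genes, 3 rose in Space and 2 in Ground pups of replicates 1 to 3. Of all genes, 4.64% and 1.92% were called there. In replicates 4 to 6, 2 and 3 rose, beside 11.9% and 15.2% of all genes called. Per1, called in Space pups of replicates 1 to 3, is on the clock list too. Tsc22d3, a glucocorticoid target, rose by 2.01 and 1.52 in the first set, and Angptl4, a fasting gene, by 2.45 and 2.59 in the second. Of 10 genes of ER stress and the amino acid response, Nupr1 rose by 3.00 in Space and 3.95 in Ground pups of replicates 1 to 3, and by 2.48 in Ground pups of replicates 4 to 6. Atf3, a stress transcription factor, rose by 2.61 in Ground pups of replicates 1 to 3, and Trib3, a pseudokinase, fell by 1.20 in Ground pups of replicates 4 to 6. Marker sums of other cells stood apart in places. Erythroid markers summed to 101 to 699 CPM in pups of replicates 4 to 6 against 31.5 to 85.5 CPM in BDF1. Pancreas markers, 1 of 5 of which was at 0 in all libraries, summed to 6.77 to 18.7 CPM in those pups against 33.2 to 38.9 CPM. Stellate cell markers summed to 132 to 174.5 CPM in pups of set A against 97.0 to 121 CPM in BDF1, and overlapped in set B. Endothelial markers summed to 49.6 to 53.9 CPM in Space pups of set A, below Ground pups (60.3 to 97.7 CPM) and BDF1 (66.7 to 78.8 CPM), and to 55.8 to 71.6 CPM in Space pups of set B, below Ground pups (84.5 to 105 CPM) and within the range of BDF1 (46.9 to 98.6 CPM). Markers of other leukocytes summed to 6.33 to 8.48 CPM in Ground pups of set A, above Space pups (4.73 to 5.79 CPM) and BDF1 (3.47 to 5.87 CPM), and to 7.70 to 10.0 CPM in Ground pups of set B, above BDF1 (4.48 to 7.03 CPM). Cholangiocyte markers were lower in Ground pups of set B (12.6 to 19.2 CPM) than in Space pups (22.2 to 23.6 CPM) and BDF1 (22 to 25 CPM), and overlapped in set A. Kupffer cell markers overlapped in both sets, at 106 to 164 CPM in pups of set B against 58.1 to 127 CPM in BDF1.

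Per kilobase of exon, the order of the members was much the same in both sets of BDF1 at its ends. Perp led at 41.1 ± 1.68 CPM per kb in replicates 1 to 3 and 50.7 ± 1.56 in replicates 4 to 6 (SD, n = 3), followed by Ei24 at 37.2 ± 1.24 and 38.2 ± 5.21. Tnfrsf10b was lowest at 0.127 ± 0.0359 and 0.0995 ± 0.00717 CPM per kb, next to Eda2r, whose spread overlapped it. Trp53 was at ranks 11 and 12 of 33, at 5.97 ± 0.446 and 5.02 ± 0.351 CPM per kb, and its range overlapped those of Fas and Mdm2 in the first set and of Gadd45a and Mdm2 in the second. Cdkn1a moved most in this order, from rank 4 (13.3 ± 6.33 CPM per kb) to rank 26 (0.560 ± 0.261).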

How the data were processed

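RNA-seq of liver from 18 mice was deposited by the authors as whole-number counts per gene (32285 rows), not normalised. Per the labels, libraries were made with a stranded mRNA kit and sequenced in pairs. The paper's supplement describes single-read sequencing for its RNA-seq, without naming the tissue. The submitters' processing notes name bcl2fastq 2.20, cutadapt 4.6, HISAT2 2.2.1, HTSeq 2.0.2 and mm10. Their settings, strand included, are not given in the sources used here. Libraries held 15407450 to 20562351 counts, and 3 counts, the limit that a count of 0 allows, were 0.134 to 0.234 CPM, for counting error only. Genes were filtered with filterByExpr, scaled by TMM and fitted in edgeR 4.0.16 (R 4.3.3) by the quasi-likelihood test with 6 means, group by replicate set (1 to 3 or 4 to 6), and 12 residual degrees of freedom. All 18 libraries shared the spread. P-values were adjusted by Benjamini-Hochberg over 13356 genes. Alternatives used limma 3.58.1, DESeq2 1.42.0, total counts, other filters and designs, and fits without 1 library. The fits were also run on simulated counts, with an outcome that is not reported here. No 2 libraries of a group agreed within sampling noise. Exon positions and overlaps came from GENCODE M21 (mm10), and promoters from RefSeq (GRCm38.p6). The members and lists were chosen with earlier results of these data known. Values in every library are given for Trp53, Cdkn1a, Mdm2 and every member called between groups within a set or over both sets, up to 12. No group comparison was left out.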

Additional observations from a re-analysis of the deposited data

Results flagged for a closer look

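In 5 of 99 sets of 6 libraries examined, 1 library stood far from the other 5 by Dixon's gap-to-range ratio (above the 95% critical value), where chance gives about 1 in 20 (4.95 sets). Plk2 stood high in Space-4 (ratio 0.667) and in Ground-5 (0.635), at 39.5 and 42.6 CPM. Polk stood low in BDF1-5 (0.671), at 3.63 CPM. Ddit4 stood high in BDF1-1 (0.647), at 9.55 CPM, and Gdf15 in Ground-4 (0.672), at 27.0 CPM. These sets join both sets, so a ratio also holds any difference between them.

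The change against BDF1 differed between replicates 4 to 6 and 1 to 3 by its own edgeR test in 7 cases. In Space pups the differences were -1.74 for Trp53inp1, 2.29 for Plk2, -2.34 for Plk3 and 1.48 for Epha2. In Ground pups they were -1.39 for Trp53inp1, -2.75 for Plk3 and 1.13 for Ppm1d. Sex and anything else that goes with the replicate numbers cannot be told apart in these differences.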

How the results depend on the processing

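Of 37 called member changes between groups, 7 kept their call in every other setting and every fit without 1 library, and 30 lost it in at least 1. Of 20 called between the sets, 10 kept it. The counts of members called moved as follows, and the cause was not tested. For Space against Ground, where 0 were called, 1 was called in replicates 1 to 3 with limma voom (3.62% of all genes), with each set fitted alone (0.11%) and without Space-4, Ground-5 and Ground-6 (0.198%), 1 over both sets without these 3 libraries (0.149%), and 1 in the difference between sets with DESeq2 (0.212%). For Space against BDF1 in replicates 1 to 3, the 3 (4.64% of all genes called) became 6 with no filter on low counts (2.81%), 8 with DESeq2 (7.69%), 9 with voom (17.7%), 6 with each set alone (8.56%) and 6 without the 3 libraries (8.55%). Over both sets, the 5 (12.9%) became 9 with total counts (33.8%), 1 with group alone (3.80%), 2 with group plus set (10.4%), 3 with the replicate block (8.49%) and 3 without Space-6 (13.7%). In the difference between sets, the 4 (3.19%) became 8 with DESeq2 (6.12%) and 9 with voom (11.3%). For Ground against BDF1, the 3 of replicates 1 to 3 (1.92%) became 5 with voom (8.21%), and the 9 of replicates 4 to 6 (15.2%) became 4 with each set alone (6.89%) and 5 without the 3 libraries (7.56%). Over both sets the 4 (14.6%) became 8 with total counts (34.7%), 7 with voom (19.9%) and 0 with group alone (3.81%). In the difference the 3 (2.74%) became 5 with total counts (11.2%), 5 with no filter (2.08%), 6 with DESeq2 (5.34%), 7 with voom (5.53%) and 1 with the replicate block (1.05%). Replicate numbers were not treated as pairs: same-numbered libraries had r of -0.60 to 0.25 (median -0.04) around the means of group and set, over 18 pairs. With the block, Plk3 in Space and Trp53inp1 in Ground pups of replicates 1 to 3, Plk2 in Space pups of replicates 4 to 6, Bbc3 and Sesn1 in Space pups over both sets, and the differences between sets of Epha2 in Space and of Trp53inp1 and Ppm1d in Ground pups were not called, with the same direction (edgeR adjusted p = 0.051 to 0.079).

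Without 1 library, the counts ran from 0 to 0 in all 4 Space against Ground comparisons, and for Space against BDF1 from 2 to 5 in replicates 1 to 3, 1 to 7 in replicates 4 to 6, 2 to 5 over both and 2 to 5 in the difference. For Ground against BDF1 they ran from 0 to 4, 4 to 10, 4 to 6 and 1 to 4 in the same order, and between the sets from 17 to 21. The shares of all genes called in these fits are not given here, so these ranges are not read as a trait of the members. Among the called changes, Trp53 and Mdm2, few signs turned. With total counts these were Ei24 between sets (-0.033) and Trp53 against BDF1 over both sets (-0.19 in Space, -0.23 in Ground pups). For Space against Ground over both sets, Trp53 turned to -0.04 without Space-5 and -0.082 without Ground-3 (-0.082 to 0.097 over the 18 fits). Mdm2 there turned to -0.000366 with voom, -0.17 without the 3 libraries, -0.0064 without Space-3, -0.023 without Space-4 and -0.058 without Ground-5 (-0.058 to 0.102 over the 18 fits). For Ground against BDF1 over both sets, Trp53 turned to -0.029 without Ground-2 (-0.029 to 0.148 over the 18 fits), and Mdm2 to 0.062 without the 3 libraries and 0.0045 without Ground-5 (-0.155 to 0.0045). The median over the members turned with total counts in replicates 4 to 6 (0.20 to -0.20 in Space, 0.16 to -0.34 in Ground pups), for Ground against BDF1 over both sets (0.17 to -0.12) and in the difference (0.10 to -0.31), and between the sets (0.12 to -0.12). Total counts moved the all-gene median over both sets to -0.26 against BDF1 for both kinds of pup and to -0.24 between the sets. The share of calls that were higher then went from 54.2% to 7.76% in Space and from 49.7% to 7.48% in Ground pups over both sets, and from 51.1% to 16.8% between the sets. Low members such as Eda2r and Tnfrsf10b are limited by depth.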
